A study of Mus musculus with 16 samples.

Results

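The 8 libraries enriched with the splice junction capture design, of 16 in the series, were used to ask which genes change the makeup of their transcripts between brain and nonbrain tissues of adult C57BL/6J mice, apart from any change in the amount of the gene. The 4 brain libraries came from the cerebellum, the cortex, the olfactory bulb and the whole brain, 1 library each. The 4 nonbrain libraries came from the heart, the kidney, the liver and a tissue labelled testes, also 1 library each. Capture sequencing (CaptureSeq) pulls chosen RNAs out of a library with oligonucleotide probes before sequencing, and here the probes were directed at splice junctions, while the other 8 libraries of the same tissues were enriched for long noncoding RNAs. The unit was the share of a spliced transcript in the summed value of its gene model. Of 59297 gene models in the assembly, 5325 had a summed value of at least 100 in all 8 libraries, 5133 of these had 2 or more transcripts, and 14159 of their 37628 multi-exon transcripts in 5131 gene models had a mean share of at least 5% and were tested.

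Most multi-exon mammalian genes yield several transcripts, by starting at different promoters, by including or skipping internal exons, or by ending at different sites. A switch of isoform changes which protein a gene makes, or which untranslated ends its mRNA carries, and can do so with no change in the amount of mRNA. Brain is known for an unusually rich set of alternative exons. Among them are microexons, exons of so few bases that they add only a handful of residues, often to proteins of the cytoskeleton, of vesicle traffic and of cell contacts. Their inclusion in neurons depends largely on the splicing factor Srrm4, whereas Ptbp1, a repressor made by most other cells, keeps many neural exons out.

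Each tissue was represented by 1 library, so a test between the groups measured the spread among different tissues. Whole brain contains the other brain tissues, and the number of mice was not given in the sources used here. Brain RNA was extracted with TRIzol and nonbrain RNA with RNeasy columns, the groups were hybridised in separate pools, and capture was followed by 16 (brain) or 17 (nonbrain) cycles of PCR. Tissue and these steps cannot be told apart. In bulk tissue, a different mix of cells and a different splicing choice within 1 kind of cell also cannot be told apart. The libraries held 14309266 to 43889343 fragments, and a gene model at the limit of 100 rested on 62 fragments in heart and on 346 in whole brain. At a share of 50%, the 95% Wilson interval at that limit reached 5.24 points above and below it in whole brain and 12.1 points in heart, which covers counting error alone. Summed markers of neurons reached 18059 to 28974 in the brain libraries, against 10.1 to 900 in the nonbrain libraries. The library labelled testis did not match its label. None of the 4 germ cell markers detected was highest there, their sum was 40.0, and 7 of 8 keratinocyte markers were highest there, with a sum of 134895 against at most 5235 in any other library. The counts of called transcripts, switches, exons, microexons and summed values are also given without it. The nonbrain libraries, which shared 1 hybridisation pool, also held low levels of the markers of each other's organs. Actc1 of heart muscle had at most 8.10 in any brain library, against 417051 in heart and 1311 to 3386 in the other nonbrain libraries. Ahsg of liver was at 0 in brain, against 101174 in liver and 628 to 1455 in the other nonbrain libraries, and Krt14 of keratinocytes had at most 2.31 in brain, against 51523 in the library labelled testis and 872 to 2155 in the other nonbrain libraries. Where 1 nonbrain library far exceeds the rest, the shares of the rest were not shown to come from their own tissue, and the part of this in the results was not tested gene by gene. A nonbrain library held under 5% of the highest nonbrain sum in 330 of the 5131 gene models tested (6.43%) and a brain library under 5% of the highest brain sum in 17.

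In the brain libraries, 1425 transcripts took a higher share of their gene model (10.1% of those tested) and 1367 took a lower share (9.65%). Together 2792 transcripts were called (19.7%), at an adjusted p below 0.05 in limma and a difference of at least 10 percentage points. The median difference was 20.5 points among those that rose and -22.5 points among those that fell, whereas the median absolute difference of all transcripts tested was 6.94 points. The groups did not overlap for 4166 transcripts (29.4%). A called transcript was found in 1579 gene models (30.8%), and 938 gene models (18.3%) held both a transcript that rose and a transcript that fell, which is called an isoform switch here. Shares within a gene model add up to a fixed total, so a rise forces a fall elsewhere. Rises and falls are therefore not independent, and their similar numbers follow in part from this. Of the 938 switches, 822 lay within 1 annotated gene with a symbol, and 115 joined transcripts of 2 or more annotated genes. Without the library labelled testis, 2402 transcripts and 760 switches were called. Where each library had at least 5% of the highest sum of its group, a limit set after seeing the data, 2492 transcripts and 834 switches were called, and 97 of the 938 switches (10.3%) had a nonbrain library under that limit. Without cortex, 607 switches were called, the fewest after leaving out any 1 library.

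The summed value passed its own test about as often in switch gene models as in all gene models tested for shares. A summed value that did not pass was not shown to be unchanged. The summed value did not pass in 689 of the 938 switch gene models. It passed in 249 (26.5%), close to the 1242 of 5131 (24.2%) among all gene models tested for shares. Over all 17324 gene models with a mean of at least 10, the summed value was higher in brain for 3719 (21.5%) and lower for 2728 (15.7%), or 37.2% in either direction. Without the library labelled testis, 3697 were higher and 2684 lower. Quantile normalization lowered the median log2 difference by 0.18 and gave 3464 higher and 3487 lower, whereas shares within a gene model do not depend on such scaling. In 173 gene models (3.37% of 5133), 1 transcript led in all 4 brain libraries and another led in all 4 nonbrain libraries, and 164 of these were switches. The same transcript led in all 8 libraries in 3152 gene models (61.4%).

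The compared transcripts of switch gene models differed most often at the first exon alone, followed by internal exons. A first exon counted as different where the splice site at its end differed, and a last exon where the splice site at its beginning differed. Start and end positions of transcripts were not compared, so a different first exon need not mean a different promoter. In 335 switch gene models (35.7%) the most risen and the most fallen transcript differed in their first exon and not in their last, against 640 of the 2796 gene models with no called transcript (22.9%), where the 2 leading transcripts were compared. Internal exons or splice sites alone separated the transcripts in 283 switches (30.2%), against 662 uncalled gene models (23.7%). A difference in the last exon alone was found in 148 switches (15.8%), against 859 uncalled gene models (30.7%), and first and last exons both differed in 172 (18.3%), against 635 (22.7%). These shares are a description, since the transcripts compared were chosen differently in the 2 sets. The intron chain matched a GENCODE M21 transcript for 45.2% of the transcripts that rose and 44.1% of those that fell, against 47.6% of all tested.

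**Figure D1:**
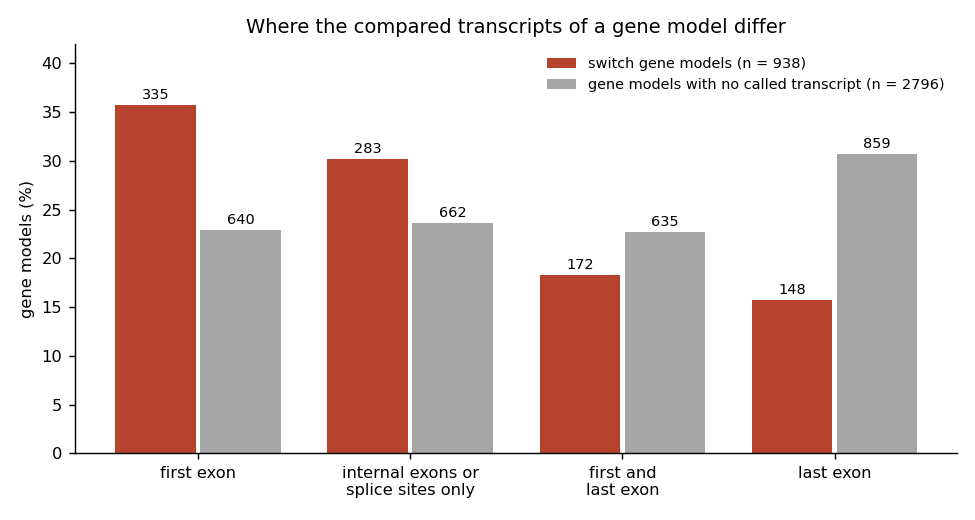
Percentage of gene models by where their compared transcripts differ, for the 938 switch gene models and the 2796 gene models with no called transcript; the number above each bar is its count. Differences in the first exon alone made up 35.7% of switches against 22.9%, and differences in the last exon alone 15.8% against 30.7%.

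Values below are given for whole brain, cerebellum, cortex and olfactory bulb, in that order, against heart, kidney, liver and the library labelled testis, in that order. A value of 0% is one listed at 0 to 4 decimals. Adjusted p-values are those of limma over all transcripts, exons or gene models tested.

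Among genes whose summed value did not pass, the largest switch was that of Gjb1, which encodes connexin 32, the gap junction protein of liver and of myelinating cells. Its transcript TCONS_00131384, which starts at the more downstream first exon, made up 100%, 100%, 99.7% and 100% of the gene model in brain, against 0%, 0%, 0.139% and 0% in nonbrain. The summed value was 418, 400.3, 207 and 132 in brain, against 319, 798, 18137 and 122 in nonbrain, so that liver held nearly all of the nonbrain signal and the other nonbrain shares were not shown to be independent of it. The brain libraries used 1 start. The nonbrain value, mostly that of liver, came almost entirely from the other, 6463 nt upstream on chromosome X. The mean shares were 99.9% ± 0.13 in brain and 0.0347% ± 0.0695 in nonbrain (SD, n = 4 each), a difference of 99.9 points with an adjusted p of 1.75e-07. The summed value of Gjb1 differed by -1.73 on the log2 scale (SE 1.40, adjusted p = 0.355). In the exact permutation test over the 70 ways of dividing the libraries, the share had p = 0.0286, the smallest this design allows. The limma and permutation tests of the share both treat the nonbrain libraries as independent, which was not shown for Gjb1.

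The other switches counted as first exon switches and named here without a called change in amount were those of Pde1a, Hnmt, Grhl1 and Pla2g6. For Pde1a, a calmodulin-dependent phosphodiesterase of cyclic nucleotides, the transcript from the upstream start took 98.2%, 70.3%, 98.4% and 88.8% of the gene model in brain, against 0%, 5.49%, 0.0009% and 0% in nonbrain. The 2 starts of Pde1a lie 90429 nt apart, the widest distance among the 20 switch genes named here, and the groups did not overlap. The nonbrain sums of Pde1a lay at 166 to 585 beside 3796 in kidney. Brain sums were also uneven, with cerebellum at 212 beside 11366 in cortex (1.86%). The share in cerebellum was thus not shown to be independent of the other brain libraries. For Hnmt, histamine N-methyltransferase, which inactivates histamine in brain, the risen transcript varied widely among brain tissues, at 43.8%, 95.2%, 66.7% and 99.9%, against 0.0814%, 0.0356%, 0.0069% and 0.0313% in nonbrain. Its difference of 76.4 points had an adjusted p of 0.003, and whole brain was the brain library nearest to the nonbrain group. Grhl1, a transcription factor of epithelia, had 92.5% ± 3.69 of its value in a transcript with another first exon in brain, against 1.09% ± 2.19 in nonbrain (SD, n = 4 each), where the library labelled testis held 17565 and the others 359 to 938 of the summed value. For Pla2g6, a calcium-independent phospholipase A2, the risen transcript took 79.6% ± 8.56 in brain and 1.09% ± 1.99 in nonbrain (SD, n = 4 each). Its 2 starts lay only 25 nt apart, and the risen transcript had 16 exons, against 17 in the fallen one. The fallen transcript of Pla2g6 holds an exon of 80 nt in the 5′ UTR, given below, so the pair does not differ by distant starts. The transcript of Pla2g6 that fell kept 22.2% in whole brain, against at most 2.30% in the other brain libraries.

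Daam1, Vps8, Vps13c and Nucb2 were among the named genes that switched by internal exons or splice sites alone. Daam1, a formin that assembles actin filaments, switched by a single exon of 27 nt. Its transcript with the exon took 99.9%, 91.4%, 93.1% and 64.7% in brain, against 0.0676%, 0.0475%, 0.0235% and 0.0448% in nonbrain, a difference of 87.2 points with an adjusted p of 0.00032. The olfactory bulb was lowest in brain, and no nonbrain library used the exon above 0.0676%. Vps8, a subunit of the CORVET tethering complex of endosomes, had shares of 77.7%, 80.1%, 80.6% and 80.9% in brain, against 12.4%, 1.00%, 0% and 0% in nonbrain. Vps13c, a lipid transfer protein of organelle contacts, had 72.9% ± 11.7 in brain and 0.765% ± 1.10 in nonbrain (SD, n = 4 each) for a transcript with 3 more exons than the one that fell. Nucb2, which encodes the precursor of nesfatin-1, had 98.9% ± 1.11 in brain and 12.7% ± 8.42 in nonbrain for the risen transcript (SD, n = 4 each).

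The core histone variant macroH2A1, encoded by H2afy, also switched. Its risen transcript took 90.7%, 60.3%, 71.6% and 72.7% in brain, against 0.0486%, 0.0056%, 0.0104% and 0.0057% in nonbrain, while the gene's summed value differed by 0.01 on the log2 scale (SE 0.36, adjusted p = 0.979). Tcf20, a transcriptional coregulator, showed the widest nonbrain spread of these genes, with 87.0%, 91.6%, 79.0% and 97.1% in brain, against 38.8%, 10.4%, 4.16% and 0% in nonbrain. Heart was thus the nonbrain library nearest to brain for Tcf20, and the summed value rested on 65 fragments in the shallowest library. Ablim3, an actin-binding LIM protein, had 75.9% ± 10.7 in brain and 2.36% ± 4.02 in nonbrain (SD, n = 4 each).

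**Figure D2:**
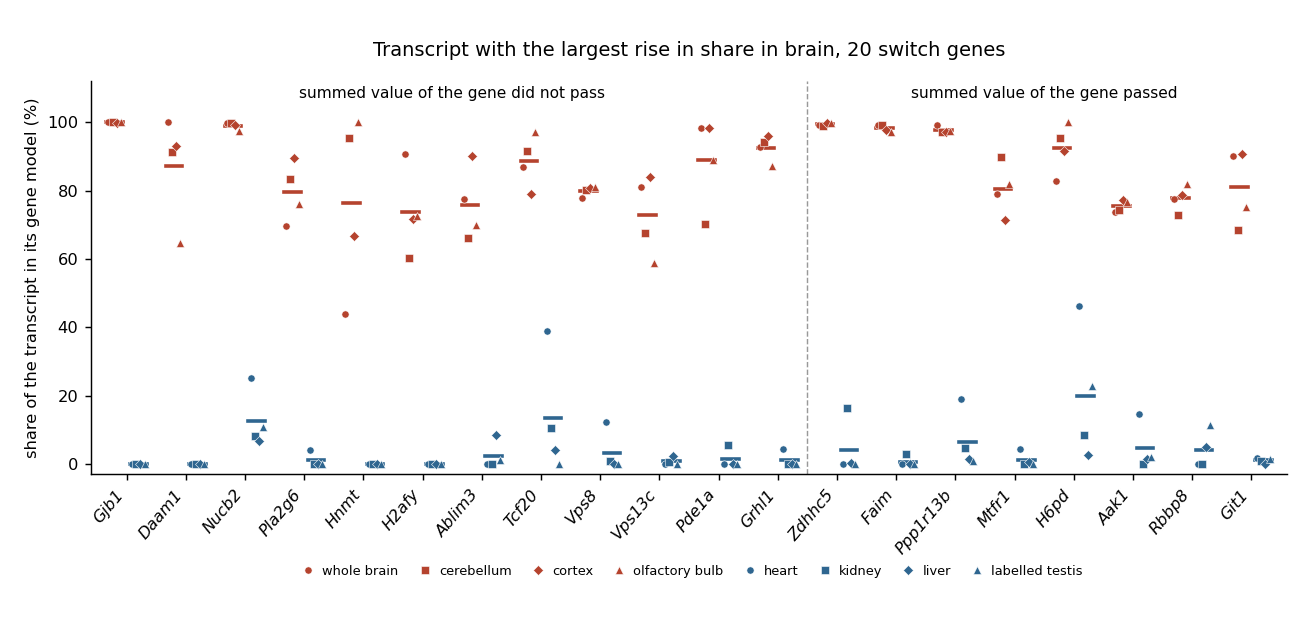
Share (%) of the most risen transcript in its gene model for the 20 named switch genes, with 1 symbol per library and a bar at the mean of each group, brain in red left of nonbrain in blue. In Gjb1 the brain libraries sit at 99.7% or above and the nonbrain libraries at 0.139% or below, and in Hnmt the brain libraries spread between 43.8% and 99.9%.

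In the 8 named genes whose summed value did pass, that value was higher in brain for some and lower for others. Zdhhc5, a palmitoyl acyltransferase, fell by 1.08 on the log2 scale in brain (SE 0.27, adjusted p = 0.0162). Within it, the transcript from the upstream start took 99.2%, 99.0%, 99.9% and 99.6% in brain, against 0.0083%, 16.2%, 0.172% and 0.0011% in nonbrain. Kidney was the 1 nonbrain library that used this start of Zdhhc5 above 1%. In the libraries enriched for long noncoding RNAs, however, the same transcript took a mean of 99.9997% in brain and 99.8% in nonbrain, so the switch of Zdhhc5 was not seen there. Faim, an inhibitor of Fas-induced cell death with a known long form in neurons, was higher in brain by 1.59 (SE 0.34, adjusted p = 0.00827). Its transcript with the upstream first exon made up 99.1%, 99.0%, 97.7% and 97.3% in brain, against 0%, 2.91%, 0% and 0% in nonbrain, with 78 fragments in the shallowest library. Ppp1r13b, which encodes the p53-binding protein ASPP1, was higher in brain by 1.42 (SE 0.32, adjusted p = 0.0104), and its transcript without an exon of 105 nt had 97.7% ± 0.92 in brain and 6.46% ± 8.56 in nonbrain (SD, n = 4 each).

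Mtfr1, a mitochondrial fission regulator, fell by 2.72 on the log2 scale in brain (SE 0.46), and H6pd, the hexose-6-phosphate dehydrogenase of the endoplasmic reticulum, fell by 3.66 (SE 0.81). Their risen transcripts had 80.5% ± 7.60 in brain and 1.21% ± 2.14 in nonbrain for Mtfr1, and 92.4% ± 7.24 in brain and 20.02% ± 19.3 in nonbrain for H6pd (SD, n = 4 each). Heart held 46.1% of the brain transcript of H6pd, the highest nonbrain value. Aak1, the kinase that phosphorylates the clathrin adaptor AP2, was the 1 named gene that switched by its last exon, with 75.5% ± 1.66 in brain and 4.55% ± 6.84 in nonbrain, and its summed value was higher in brain by 3.45. Git1, an ArfGAP scaffold of synapses and focal adhesions, had 81.1% ± 11.1 in brain and 1.04% ± 0.783 in nonbrain for its risen transcript (SD, n = 4 each). Rbbp8, which encodes the DNA end resection factor CtIP, had 77.7% ± 3.70 in brain and 4.05% ± 5.32 in nonbrain for a transcript that starts 24073 nt downstream of the one that fell.

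In the libraries enriched for long noncoding RNAs, 22 of the 40 named transcripts had a summed value of at least 10 in all 8. Of these 22, 16 had a difference of the same sign as here and 6 changed sign. Of the 16, only 1 lay within the spread between libraries of its value here. The other 15 departed from their value here by more than that spread, some of them to a difference near 0. The risen and fallen transcripts of a gene model were counted separately, so the 22 are not independent. The risen transcript of Git1 differed by 81.1 points there and 80.02 points here, whereas that of H2afy differed by 1.06 points there and 73.8 here, that of Vps13c by 1.13 and 72.1, and that of Ppp1r13b by 7.33 and 91.2. The 6 that changed sign were both transcripts of Pla2g6 and of Vps8, the fallen transcript of Zdhhc5 and the risen transcript of Rbbp8.

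Exon inclusion, the summed value of transcripts that hold an internal exon over that of the transcripts that hold or skip it, was tested for 5039 exons. In brain, 766 exons were included more (15.2%) and 596 less (11.8%), and these 1362 exons came from 801 gene models and 1197 distinct sets of transcripts. Without the library labelled testis, 1257 exons were called. The balance of rises and falls differed by exon length. Of 224 microexons of 3 to 27 nt, 93 rose in brain (41.5%) and 15 fell (6.70%). Of 643 exons of 28 to 60 nt, 125 rose (19.4%) and 82 fell (12.8%), and of 2044 exons of 61 to 120 nt, 263 rose (12.9%) and 289 fell (14.1%). Of 2127 longer exons, 285 rose (13.4%) and 210 fell (9.87%). The median difference was 12.6 points for the microexons, and it lay between -1.01 and 0.78 points in the other classes. Without the limit on mean inclusion of 5% to 95%, 79 of 360 microexons rose (21.9%) and 13 fell (3.61%). Without the library labelled testis, 88 of 224 rose and 15 fell. Where each library had at least 5% of the highest of its group, 1209 exons were called, and 87 of 206 microexons rose and 13 fell.

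**Figure D3:**
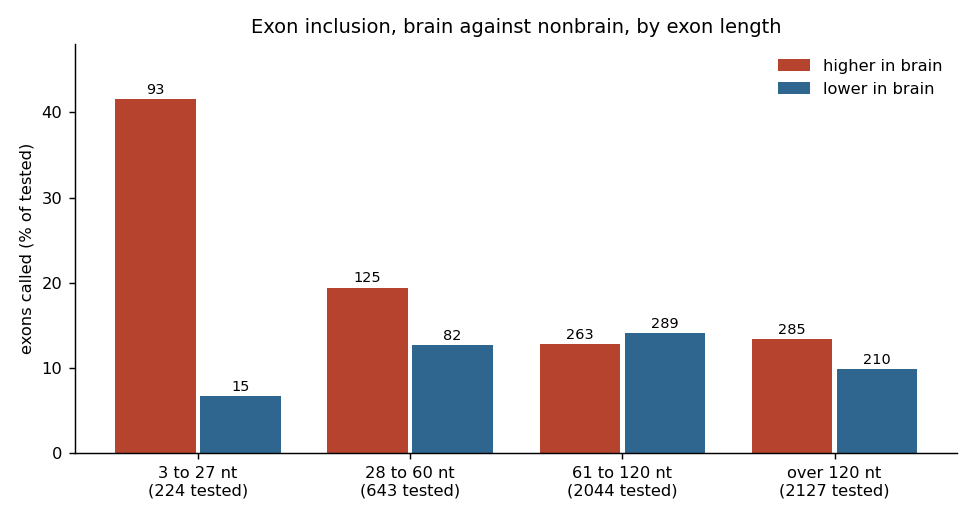
Percentage of tested exons called higher in brain (red) or lower in brain (blue), by exon length in nt; the number above each bar is its count. Of the microexons of 3 to 27 nt, 41.5% were higher and 6.70% lower, whereas 12.9% were higher and 14.1% lower among exons of 61 to 120 nt.

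Microexons that rose in brain mostly had a length that keeps the reading frame. A length that is a multiple of 3 was found for 85 of the 93 that rose (91.4%), for 10 of the 15 that fell (66.7%) and for 74.1% of those not called, against 49.1% of exons of all lengths. GENCODE M21 held 90 of the 93 exons that rose (96.8%), and 84 of them were wholly coding, of which 80 (95.2%) were a multiple of 3. Of the 15 that fell, 13 were wholly coding, with 10 (76.9%) a multiple of 3, and 1 lay in a 5′ UTR. The 93 microexons belonged to 85 gene models, and the summed value passed in 25 of these, beside 1242 of the 5131 gene models tested for shares (24.2%).

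The 12 microexons with the largest difference are shown with the bases around them. Among the transcripts that hold or skip each one, most of the brain value held it and most of the nonbrain value skipped it. Capitals mark the microexon and lower case marks bases of the neighbouring exons as joined in the mRNA, 5′ to 3′ on the coding strand, read from GENCODE M21 transcripts on GRCm38. All 12 lie in coding sequence and have a length that is a multiple of 3.
Ppfia1, chr7:144488691-144488717, minus strand, 27 nt: gGAAGACGAGGAGGGAAGCTGGGCTCAGa
Daam1, chr12:71958747-71958773, plus strand, 27 nt: gGAGTTCTTTGTGAACAACTCCAAGCAGa
Dync2h1, chr9:7045349-7045369, minus strand, 21 nt: acagATTATTGGTTTGAAGTCATGGagtc
Asap1, chr15:64153844-64153852, minus strand, 9 nt: tccgaaagaaTCTAGAAGAgactctcaga
Ap1b1, chr11:5033242-5033262, plus strand, 21 nt: cctgATGGGGGATGAGTCTGAAGGGattg
Myo6, chr9:80303273-80303299, plus strand, 27 nt: gATTTTGCACCATTTTTGAACAATTCACc
Vps8, chr16:21451356-21451361, plus strand, 6 nt: ctttaatatttgGAAAAGatcagaatcaag
Ptprk, chr10:28570174-28570191, plus strand, 18 nt: atcgacATTTGGCTGTACAGGGATggctac
Cadps2, chr6:23381057-23381077, minus strand, 21 nt: gaagGGCCCGCAGAAAAGGAAACAGagac
Dtnb, chr12:3754096-3754116, plus strand, 21 nt: aaagGAGGAAGAGCAAAAGCAGGCAgctc
Ryr2, chr13:11634307-11634330, minus strand, 24 nt: gaaGTCACAGGATCCCAACGCAGCAAGgaa
Cadps2, chr6:23354194-23354202, minus strand, 9 nt: tcatgctgagGGAAGAGAGgcatttgcct

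The largest difference among them was that of Ppfia1, liprin-alpha-1, a scaffold of presynaptic sites and focal adhesions. Its exon of 27 nt was included at 95.05%, 97.0%, 96.5% and 98.3% in brain, against 10.5%, 0.0745%, 4.27% and 0.0001% in nonbrain, a difference of 93.0 points (adjusted p = 2.5e-05). The neighbouring coding exon of 63 nt in Ppfia1 (chr7:144489197-144489259) was included at 97.7% ± 1.65 in brain and 3.97% ± 5.42 in nonbrain (SD, n = 4 each), so that the pair gave the largest rise of all exons named. The summed value of Ppfia1 differed by -0.06 on the log2 scale (adjusted p = 0.936).

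Other microexons of the 12 lay in Dync2h1, Myo6, Ap1b1, Asap1 and Vps8. Dync2h1, the heavy chain of the dynein that moves cargo within cilia, included its exon of 21 nt at 82.1%, 89.9%, 86.6% and 89.9% in brain, against 0%, 0.0082%, 0.0883% and 0.005% in nonbrain. Myo6, the myosin that walks to the minus end of actin filaments, included its exon of 27 nt at 78.0%, 97.0%, 94.5% and 81.4% in brain, against 1.65%, 0.531%, 2.34% and 19.1% in nonbrain. The library labelled testis was the highest nonbrain library for Myo6, well below every brain library. Ap1b1, a subunit of the clathrin adaptor AP1, included its exon of 21 nt at 95.1%, 60.9%, 93.5% and 87.3% in brain, against 0.247%, 0.0003%, 0.0425% and 0% in nonbrain, with cerebellum lowest in brain. Inclusion of the Ap1b1 exon rested on 73 fragments in the shallowest library, too few to resolve such small percentages. Asap1, an ArfGAP that remodels membrane and actin, included 9 nt at 87.3% ± 8.38 in brain and 3.13% ± 2.92 in nonbrain (SD, n = 4 each). In Vps8, the exon of 6 nt was included at 83.5% ± 2.27 in brain and 4.30% ± 6.45 in nonbrain, and an exon of 90 nt farther along fell to 20.2% ± 1.48 in brain, against 96.7% ± 6.05 in nonbrain (SD, n = 4 each).

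Cadps2, which primes dense core vesicles for release, carried both an exon of 21 nt and an exon of 9 nt among the 12. The exon of 21 nt was included at 88.9%, 92.6%, 88.2% and 51.8% in brain, against 0%, 2.62%, 3.43% and 3.94% in nonbrain. The exon of 9 nt was included at 86.7%, 81.0%, 86.0% and 51.3% in brain, against 0%, 0%, 0.499% and 0% in nonbrain. The olfactory bulb stood below the other brain libraries for both, and its lower values still lay far above the nonbrain ones. Both exons of Cadps2 rested on 83.9 fragments in the shallowest library. Ryr2, the calcium release channel of heart muscle that is also made in brain, included 24 nt at 76.0%, 92.0%, 78.5% and 71.3% in brain, against 0.957%, 7.42%, 0.603% and 0.779% in nonbrain. The summed value of Ryr2 was 521928 in heart, against 2283 in kidney, 3450 in liver and 1422 in the library labelled testis, so the inclusion in those 3 was not shown to be independent of heart. Ptprk, a receptor tyrosine phosphatase of cell contacts, included 18 nt at 84.7% ± 8.72 in brain and 6.67% ± 2.25 in nonbrain, and Dtnb, a dystrobrevin of the dystrophin complex, included 21 nt at 84.0% ± 4.00 in brain and 6.57% ± 4.10 in nonbrain (SD, n = 4 each).

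**Figure D4:**
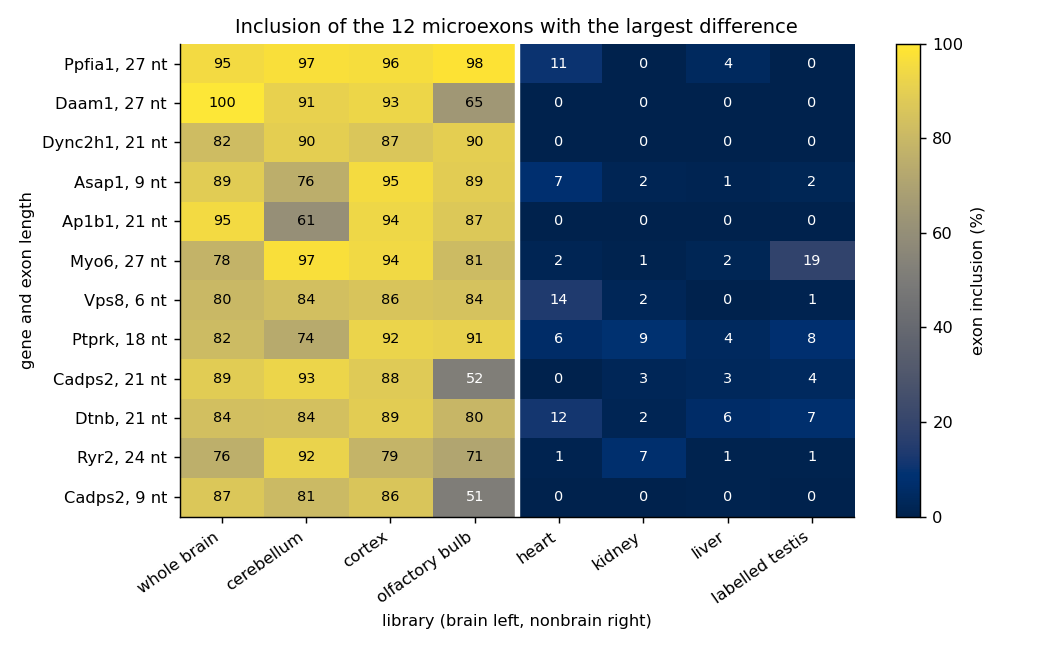
Inclusion (%) of the 12 microexons with the largest difference, 1 row per exon and 1 column per library, brain left and nonbrain right, each cell printed with its rounded value. Every brain value is above every nonbrain value, and the lowest brain values are those of both Cadps2 exons in olfactory bulb, 51.8% and 51.3%.

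Across the 93 microexons that rose, the brain libraries differed little from each other in their typical level. The median inclusion was 66.7% in whole brain, 67.5% in cerebellum, 71.2% in cortex and 64.5% in olfactory bulb, against 11.7% in heart, 3.08% in kidney, 3.80% in liver and 4.53% in the library labelled testis. For 89 of the 93 the groups did not overlap, against 18.5% of all exons tested with brain higher, and this count follows in part from the call itself. Inclusion was at least 50% in all 4 brain libraries for 52 microexons and under 10% in all 4 nonbrain libraries for 37. The olfactory bulb was the lowest brain library for 38 (40.9%), against 37.3% of all exons that rose and 25.9% of all exons tested. Cerebellum was lowest for 27, whole brain for 17 and cortex for 11.

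Heart was the nonbrain library nearest to brain in these microexons. It had the highest nonbrain inclusion for 52 of the 93 microexons (55.9%), against 381 of the 766 exons of any length that rose (49.7%) and 31.6% of all exons tested. In 11 microexons heart lay at least 30 points above the next nonbrain library, a set that was picked after its values were seen. Mef2d, a transcription factor of muscle and neurons, included 21 nt at 94.3%, 93.7%, 95.03% and 93.6% in brain, against 78.7%, 4.34%, 9.05% and 2.46% in nonbrain. Lrrfip1, which binds nucleic acids and Flightless, included 18 nt at 95.6%, 95.3%, 95.9% and 87.0% in brain, against 86.4%, 3.82%, 6.41% and 1.36% in nonbrain. Heart and brain were thus alike in these exons, and the other nonbrain libraries were alike in skipping them. The other genes of the 11 were Suco, Arhgap23, Ptprm, Tpd52l2, Slc38a10, Apbb2, Ctnnd1, Mars and Snx14. Heart also had the fewest fragments of the 8 libraries, and the part of depth in this order was not tested. Without heart, 110 of 226 microexons rose (48.7%). The library labelled testis stood at least 30 points above the next nonbrain library in 1 microexon.

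**Figure D5:**
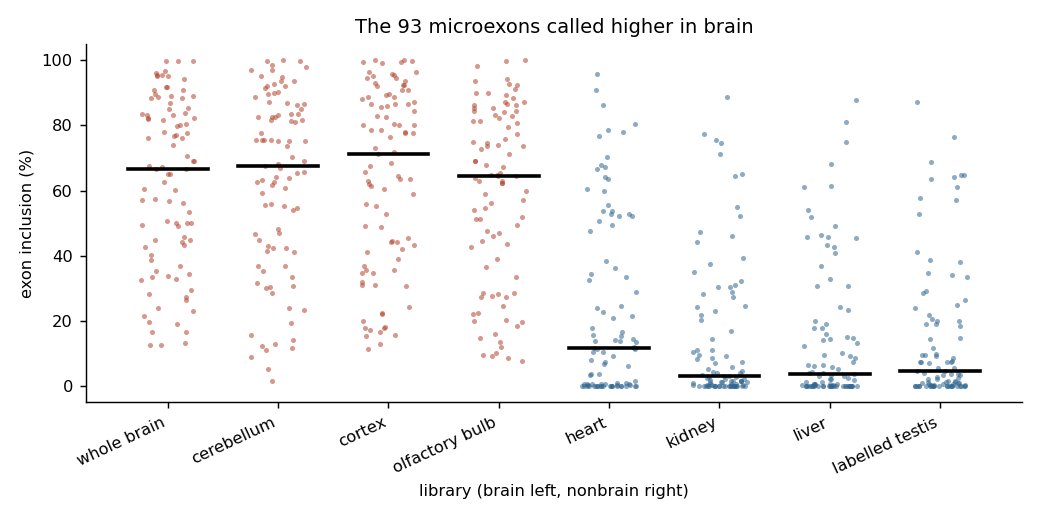
Inclusion (%) of each of the 93 microexons called higher in brain (points) in each library, brain left in red and nonbrain right in blue, with the median as a black bar. Medians lie between 64.5% and 71.2% in brain and at 11.7% in heart, above 3.08% in kidney, 3.80% in liver and 4.53% in the library labelled testis.

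The 15 microexons that fell had medians of 34.7% in whole brain, 41.0% in cerebellum, 35.4% in cortex and 35.5% in olfactory bulb, against 63.0% in heart, 71.4% in kidney, 79.2% in liver and 78.8% in the library labelled testis.

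In gene models with 1 annotated gene, the longer exons among the 10 with the largest rise lay in Vps13c, Myo9a and Nucb2, beside that of Ppfia1. Vps13c included a pair of coding exons of 63 and 66 nt, held by the same transcripts, at 95.2%, 94.4%, 97.0% and 93.0% in brain, against 0%, 0.726%, 2.57% and 6.98% in nonbrain. Myo9a, a myosin with a RhoGAP domain, included 54 nt at 79.7%, 99.9%, 79.7% and 99.9% in brain, against 0.389%, 0.0079%, 0.988% and 0.0835% in nonbrain. Its summed value was also higher in brain, by 2.21 on the log2 scale (adjusted p = 0.00708). Nucb2 included 81 nt at 99.2% ± 0.845 in brain and 12.7% ± 8.42 in nonbrain (SD, n = 4 each).

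Of the 10 exons with the largest fall, the exon of 90 nt in Vps8 was given above and the others follow. Khk, ketohexokinase, the first enzyme of fructose breakdown, included its coding exon of 135 nt (chr5:30927022-30927156) at 0.447%, 3.68%, 1.34% and 0.862% in brain, against 62.0%, 98.7%, 98.9% and 58.3% in nonbrain. Kidney and liver used this exon almost always, and heart and the library labelled testis lay between them and brain, with summed values of 940 and 492 beside 13470 in kidney and 17256 in liver. The summed value of Khk fell by 4.55 in brain on the log2 scale (adjusted p = 0.0164). Neb, the giant thin filament protein of skeletal muscle, included 111 nt at 4.87%, 1.28%, 7.502% and 2.71% in brain, against 98.8%, 85.5%, 73.0% and 61.3% in nonbrain, where kidney had a summed value of 153. H2afy included 91 nt of coding sequence at 10.8% ± 8.06 in brain and 95.9% ± 3.36 in nonbrain, and Dtnb included 90 nt at 11.6% ± 1.66 in brain and 96.1% ± 5.20 in nonbrain (SD, n = 4 each). Dtnb thus gained 1 exon and lost another in brain. Etl4, which encodes the scaffold protein sickle tail, lost exons of 78 nt (10.6% ± 3.42 in brain and 89.1% ± 3.79 in nonbrain) and 120 nt (22.8% ± 9.79 in brain and 99.9% ± 0.296 in nonbrain). The coding exon of 77 nt in Grhl1 was at 7.51% ± 3.69 in brain and 98.9% ± 2.19 in nonbrain. The summed value of Grhl1 was 17565 in the library labelled testis, beside 359 to 938 in the other nonbrain libraries. Inclusion in those others was not shown to be independent of it. The exon of 105 nt in Ppp1r13b was at 2.22% ± 0.855 in brain and 93.5% ± 8.56 in nonbrain. In Pla2g6, an exon of 80 nt in the 5′ UTR was included at 24.2%, 0.221%, 0.659% and 2.93% in brain, against 95.4%, 88.8%, 99.9% and 99.9% in nonbrain.

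Genes known for tissue-regulated splicing were then counted by function. These lists were chosen for that property and with earlier results known, so their counts are a description beside those of all gene models, from which nothing is read. Among all gene models tested, 18.3% were switches, and of 2343 with a tested exon, 507 had an exon that rose and 406 an exon that fell. Of 19 tested genes of the cytoskeleton and motors, 13 had a called transcript (68.4%), beside 30.8% of all gene models tested. The median of the largest difference per gene was 26.6 points, beside 9.95 points over all, and 5 of the 19 were switches (26.3%). Of 16 with a tested exon, 7 had an exon that rose in brain and 6 an exon that fell. Sptan1, alpha-II spectrin of the membrane skeleton, included 15 nt at 95.9%, 100%, 100% and 100% in brain, against 66.6%, 28.3%, 45.4% and 19.1% in nonbrain, a difference of 59.1 points (adjusted p = 0.00107). Actn1, an actin crosslinker, included 66 nt at 71.8% ± 15.8 in brain and 22.0% ± 19.98 in nonbrain (SD, n = 4 each, adjusted p = 0.0206). In Ldb3, a Z-disc protein, the largest rise and fall of a transcript were 27.03 and -47.2 points.

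Of 18 genes of vesicle traffic and endocytosis, 12 had a called transcript (66.7%), 8 were switches (44.4%), and the median of the largest difference was 25.1 points. Of 15 with a tested exon, an exon rose in 9 and fell in 7. Exoc7, a subunit of the exocyst that tethers vesicles to the plasma membrane, included 39 nt at 89.3%, 86.1%, 93.4% and 83.0% in brain, against 31.2%, 6.00%, 3.07% and 1.78% in nonbrain, a difference of 77.5 points (adjusted p = 0.000421). Asap2, an ArfGAP related to Asap1, included 9 nt at 67.4%, 65.3%, 76.3% and 38.9% in brain, against 11.9%, 0%, 0% and 0% in nonbrain. Stx3, a membrane fusion syntaxin, included 46 nt at 58.6%, 86.7%, 85.0% and 26.8% in brain, against 2.59%, 0.321%, 0% and 0.641% in nonbrain. Heart was the highest nonbrain library in all 3 genes, and the olfactory bulb the lowest brain library.

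Of 13 genes of cell adhesion and receptors, 9 had a called transcript (69.2%) and 7 were switches (53.8%), with a median of 29.1 points. Insr, the insulin receptor, fell in brain for its exon of 36 nt, which was included at 20.7%, 11.7%, 6.13% and 18.6% in brain, against 57.0%, 90.0%, 95.8% and 92.7% in nonbrain, a difference of -69.6 points (adjusted p = 0.00152). Aplp2, a relative of the amyloid precursor protein, rose for an exon of 36 nt, at 93.8% ± 5.87 in brain and 19.5% ± 22.6 in nonbrain. Cd44, the hyaluronan receptor, fell for an exon of 102 nt, at 4.62% ± 2.999 in brain and 66.4% ± 23.2 in nonbrain (SD, n = 4 each). In the library labelled testis, the one rich in keratinocyte markers, this exon of Cd44 was included at 98.8%, the highest of all 8, while the next highest library was kidney at 62.8%. Ctnnd1, the cadherin-binding p120 catenin, rose for an exon of 118 nt, at 94.1% ± 0.831 in brain and 34.2% ± 31.7 in nonbrain, with heart at 80.4%.

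Of 19 kinase, phosphatase and signalling genes, 11 had a called transcript (57.9%) and 5 were switches (26.3%), with a median of 21.2 points. Camk2d, the calmodulin kinase of heart and brain, included 73 nt at 38.5%, 40.6%, 38.5% and 37.0% in brain, against 91.4%, 100%, 98.9% and 99.8% in nonbrain, a difference of -58.9 points (adjusted p = 9.54e-05). The 4 brain values lay within a few points of each other, below every nonbrain value. Dlg1, a scaffold of cell junctions and synapses, included 36 nt at 58.8% ± 6.85 in brain and 0.854% ± 1.71 in nonbrain, and Git2, the relative of Git1, included 6 nt at 67.3% ± 9.76 in brain and 11.6% ± 3.08 in nonbrain (SD, n = 4 each). Nf1, the Ras inhibitor neurofibromin, included 30 nt at 53.9%, 18.7%, 69.1% and 57.5% in brain, against 20.01%, 16.5%, 20.8% and 17.96% in nonbrain. The groups overlapped for Nf1, since cerebellum lay within the nonbrain range.

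Of 14 transcription and chromatin regulators tested, 4 had a called transcript (28.6%, beside 30.8% of all gene models), all of them switches (28.6%, beside 18.3%), and the median of the largest difference was 7.70 points, beside 9.95. Those 4 were Mef2d, Rreb1, Rere and Phf21a. Phf21a, a reader of unmodified histone H3, included an exon of 249 nt at 97.4% ± 0.611 in brain and 79.1% ± 2.90 in nonbrain, and Rere, a nuclear receptor coregulator, included 139 nt at 54.6% ± 15.0 in brain and 92.3% ± 9.18 in nonbrain (SD, n = 4 each). The largest rise and fall of a transcript in Rreb1, a zinc finger factor, were 28.8 and -20.02 points.

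Of 36 splicing regulators, 4 could be tested for shares, and 3 of the 4 had a called transcript (75%). Mbnl2, an RNA-binding regulator of splicing in muscle and brain, included 36 nt at 46.0%, 20.8%, 50.8% and 27.2% in brain, against 1.35%, 6.50%, 5.01% and 7.37% in nonbrain. Its relative Mbnl1 included 111 nt at 34.5% ± 2.69 in brain and 17.8% ± 6.26 in nonbrain (SD, n = 4 each), and in Celf1 the largest rise and fall of a transcript were 29.1 and -27.7 points. The member not called was Ptbp3, with 8.53 and -8.17 points. By summed value, Srrm4 had 227, 607, 343 and 740 in brain, against 130, 1.34, 47.0 and 3.20 in nonbrain, higher by 4.78 on the log2 scale (SE 1.26, adjusted p = 0.0191), with heart the highest nonbrain library. Ptbp1 fell by 2.11 on the same scale in brain (SE 0.45, adjusted p = 0.00801), and both directions held after quantile normalization (4.46 and -2.14). Other regulators differed by more, such as Rbfox3 (11.1) and Srrm3 (9.60), higher in brain, and Esrp1 (-6.98) and Esrp2 (-6.17), lower. Others did not pass, such as Rbfox2 (0.98, adjusted p = 0.271 in limma). Which regulators bear on the exons given here was not tested.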

How the data were processed

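The authors aligned reads with TopHat2 to GRCm38, assembled transcripts with Cufflinks, and deposited 1 table of Cuffnorm values (version 2.2.1), a normalized signal of estimated fragments per transcript, with the merged assembly. Dividing gene model sums by the smallest step of each library gave whole fragments in 100% of values up to 20 steps, within 0.1, and these give the depths. Transcript values are fractional, since fragments shared by isoforms were divided among them, so no count model was used.

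Shares and exon inclusion were computed in percent, transformed by the arcsine of the square root and fitted with limma 3.58.1 in R 4.3.3, brain against nonbrain, with Benjamini-Hochberg adjustment over all features tested. Summed values were fitted as log2(value + 1), so that fold changes of low genes are understated. Exons needed a summed value of 100 in all 8 libraries and a mean inclusion of 5% to 95%. Python 3.11.15 with NumPy 2.4.6, pandas 2.3.3, SciPy 1.17.1, statsmodels 0.14.6 and matplotlib 3.10.9 did the rest. Gene symbols and exon positions came from GENCODE M21 on GRCm38. The fits were tested on simulated data.

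Named switches were the 12 with the largest change whose summed value did not pass and the 8 whose summed value did. They were ranked by the smaller of the largest rise and the largest fall within 1 annotated gene. Named exons were the 10 largest rises and the 10 largest falls among called exons in gene models with 1 annotated gene. The 12 called microexons with the largest difference and up to 4 called members of each of 6 gene lists were also named. Members and lists were chosen with earlier results of these data known. The alternatives were other transformations, filters, scalings and thresholds, the ERCC mix as a factor, leaving out each library, and the libraries of the other design.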

Additional observations from a re-analysis of the deposited data

Results flagged for a closer look

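Among the 134 groups of 4 libraries behind the named transcripts and exons, 28 had 1 library far from the other 3 by Dixon's test at the 95% level, which chance gives in about 1 group of 20. Many of these groups lie near 0% or 100%, where a small difference is enough. Heart stood apart from the other nonbrain libraries, on the side of brain, in the risen transcripts of Pla2g6 (4.08%), Vps8 (12.4%), Grhl1 (4.38%), Mtfr1 (4.42%), Aak1 (14.7%) and H2afy (0.0486%). It did so too in the fallen transcript of Aak1 (85.2%) and in the exons of 9 nt in Asap1 (7.48%), 77 nt in Grhl1 (95.6%) and 90 nt in Vps8 (87.6%). Kidney stood apart in Zdhhc5 (16.2% for the risen and 83.5% for the fallen transcript), in the risen transcripts of Pde1a (5.49%) and Faim (2.91%), and in the exon of 24 nt in Ryr2 (7.42%). Liver stood apart in the risen transcripts of Ablim3 (8.34%) and Gjb1 (0.139%), and in the exons of 21 nt in Dync2h1 (0.0883%) and 9 nt in Cadps2 (0.499%). The library labelled testis stood apart in the exons of 27 nt in Myo6 (19.1%) and 120 nt in Etl4 (99.4%).

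Within brain, the olfactory bulb stood below the other libraries in both microexons of Cadps2 (51.8% for 21 nt and 51.3% for 9 nt) and above them in the fallen transcript of Faim (0.00303%). Whole brain stood apart in Pla2g6, with 22.2% for the fallen transcript and 24.2% for its exon of 80 nt, and in the risen transcript of Ppp1r13b (99.0%). Cortex stood apart in the risen transcript of Gjb1 (99.7%).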

How the results depend on the processing

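The 67 shares and inclusions of named transcripts and exons were chosen for large differences. All that could be computed kept their direction and their call under every other transformation, filter and scaling. They also did so with the ERCC mix as a factor, and without any 1 library. At a summed value of at least 1000, only 6 named transcripts and 6 named exons could be computed, so most were not checked at that depth. The exceptions came from the libraries enriched for long noncoding RNAs. There, 15 values kept their sign but departed from those here by more than the spread between libraries. Another 6 changed sign, namely Pla2g6 (-0.26 and 2.79 points), Vps8 (-21.4 and 21.5), Zdhhc5 (0.000269) and Rbbp8 (-1.04). Within the libraries of 1 ERCC mix, 4 values moved by more than 1 SD in the same direction. With a summed value of at least 1000, there were 616 called transcripts, 219 switches, 263 exons and 24 microexons. With a difference of at least 20 points, there were 1504 transcripts and 511 switches, and without a filter on the mean share, 585 switches. Summed values with a mean of at least 100 gave 4147 calls, 1976 higher and 2171 lower. Leaving out each library in turn gave 1980 to 3253 transcripts, 607 to 1103 switches, 953 to 1828 exons, 4395 to 6920 summed values and 87 to 127 microexons. The fewest came without cortex and the most without heart. The settings for microexons and the limit of 5% of the highest library of a group were added after seeing the data. Fewer features are tested at a limit of 1000, and otherwise the cause was not tested. No paired analysis was possible because each tissue gave 1 library and replicate numbers follow accession order. Depth limits shares most in heart, where a summed value of 100 is 62 fragments.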

Other observations

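The microexons given here lie outside those named in the report and were chosen after their values were seen. Cpeb4, a regulator of mRNA translation, included 24 nt at 69.0%, 75.6%, 73.0% and 62.4% in whole brain, cerebellum, cortex and olfactory bulb, against 0.0425%, 0.0647%, 14.1% and 20.5% in heart, kidney, liver and the library labelled testis. Eif4g1, the scaffold of the cap-binding complex, included 21 nt at 57.3%, 55.2%, 61.3% and 59.9% in brain, against 15.7%, 11.1%, 12.3% and 7.39% in nonbrain. Chchd3, a protein of mitochondrial cristae, included 15 nt at 67.4%, 67.5%, 71.9% and 64.8% in brain, and no nonbrain library exceeded 0.614%. In Ptk2, focal adhesion kinase, exons of 18 and 21 nt both rose, with differences of 58.6 and 55.8 points. Clasp2, which stabilises microtubule ends, gained an exon of 24 nt (65.1 points) and lost another of 24 nt together with one of 18 nt (-55.7 points each, held by the same transcripts). Among the microexons that fell, that of 15 nt in Papss2, an enzyme that makes the sulfate donor PAPS, was included at 1.65% or less in brain, against 24.4%, 58.5%, 56.9% and 29.1% in nonbrain.

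The inclusion of the 93 microexons that rose also varied among the brain libraries, with a median range of 13.6 points over the 4 brain libraries and 10.0 points over the 4 nonbrain libraries. The range over brain was under 30 points in 73 of the 93. In Casq2, a calsequestrin of muscle, 9 nt were included at 77.8%, 93.8%, 11.2% and 9.56% in whole brain, cerebellum, cortex and olfactory bulb, against at most 0.0212% in nonbrain. In Dock10, a guanine nucleotide exchange factor, 6 nt were included at 33.8%, 75.3%, 52.9% and 20.02% in brain, against 0.681%, 1.36%, 0.29% and 1.99% in nonbrain. Olfactory bulb lay at least 30 points below the other 3 brain libraries in 1 microexon. Cerebellum lay at least 30 points above the other 3 brain libraries in 2 of the 93 that rose and below them in 1. In Mta1, a subunit of the NuRD chromatin complex, 12 nt were included at 65.6% in cerebellum, against 13.2%, 17.3% and 12.1% in whole brain, cortex and olfactory bulb. In Pus7, a pseudouridine synthase, 18 nt were included at 77.6% in cerebellum, against 36.9%, 44.3% and 44.4%. In Fryl, 18 nt were included at 14.1% in cerebellum, against 88.5%, 80.4% and 81.3%. With 1 library for each brain tissue, the differences among brain tissues have no replicate check. The microexon of 18 nt in Mon2, a regulator of Golgi traffic, was included at 64.8% in the library labelled testis, against at most 0.767% in the other nonbrain libraries.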
